A study of Mus musculus with 8 samples.

Results

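9720 PU.1 binding sites are described that were called in the library titled knockdown Day 12- 12 and in none of the other 6, and that had a score of 10 or more there. Calls of the 7 libraries were joined when their summits, the positions of highest signal within a peak, lay within 100 bp of each other, which gave 246675 merged sites. The score is the authors' own value for each peak, read as the −log10 of its q-value, so that a higher score means a more certain peak within its own list. The Day 12- 12 list held 148415 sites, of which 102436 were called in no other library. The 9720 members were thus selected on the calls and on the scores themselves, and both are given as a description. The other unshared sites of the library, 92716 with a score under 10, are called the weaker sites, and the 19031 Day 12- 12 sites of score 10 or more that another library also called are the shared sites.

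The study mapped PU.1 on chromatin by ChIP-seq, which sequences the DNA that an antibody against the factor pulls down. Its cells were AML246, mouse acute myeloid leukaemia cells kept in IL-3 medium, in which doxycycline (Dox, 0.1 ug/mL) restores PU.1 and its withdrawal lowers it again. Dox was given on day 0 and taken away on day 12 of a 24 day course, and viable cells were isolated by FACS for each library. The Day 12- 12 library carries a treatment label of 8 days off Dox. The libraries it was set against were titled restoration Day 0 (untreated), Day 4, Day 8 and Day 12 (4, 8 and 12 days of Dox), knockdown Day 12- 4 (labelled 12 days of Dox, Cd11b-high cells) and knockdown Day 12- 8 (labelled 4 days off Dox). Titles and treatment labels of the knockdown libraries named different times, and the titles are used here. With 1 library per time point by title, nothing here can be weighed against a spread between replicates, and no test was run. Intervals are exact (Clopper-Pearson) 95% intervals, cover counting error only, and treat neighbouring sites of 1 library as if they were independent.

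PU.1, encoded by Spi1, belongs to the ETS family of transcription factors, whose members bind DNA around a GGAA core, and PU.1 itself favours a purine-rich sequence such as GAGGAAGT. It is needed for the myeloid and B-lymphoid lineages and binds both promoters and distant enhancers in macrophages and neutrophils. Low PU.1 activity is a known feature of several mouse models of acute myeloid leukaemia.

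Only 78 members lay inside a RefSeq promoter window (250 bases before to 50 after a gene start), and these are the members for which sequence was at hand. They fell in 81 of 21262 windows, 0.381% of all. In 31 of the 78 the bases around the summit overlapped no annotated gene body. The 8 with the highest scores among those of the 31 that had at least 60 bases to show are printed, 60 bases to either side of the summit where the window allowed and upstream of the start alone, 5′ to 3′ along the gene's strand, with the ETS core GGAA and its reverse complement TTCC in capitals. Sequences are from RefSeq's GRCm38.p6 table.
Plk1 (mitotic kinase), score 18.3, chr7:122159185-122159252, plus strand: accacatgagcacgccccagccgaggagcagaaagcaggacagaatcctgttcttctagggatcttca
Ect2l, score 17.8, chr10:18210828-18210887, minus strand: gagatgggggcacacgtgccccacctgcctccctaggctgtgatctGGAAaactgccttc
Car6 (secreted carbonic anhydrase), score 17.8, chr4:150201136-150201252, minus strand: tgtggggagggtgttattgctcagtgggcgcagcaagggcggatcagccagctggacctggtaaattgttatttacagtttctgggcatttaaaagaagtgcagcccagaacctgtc
Car5a (mitochondrial carbonic anhydrase), score 17.8, chr8:121944913-121944993, minus strand: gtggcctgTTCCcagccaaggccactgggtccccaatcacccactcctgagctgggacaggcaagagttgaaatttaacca
Tas1r2 (sweet taste receptor subunit), score 15.6, chr4:139653397-139653517, plus strand: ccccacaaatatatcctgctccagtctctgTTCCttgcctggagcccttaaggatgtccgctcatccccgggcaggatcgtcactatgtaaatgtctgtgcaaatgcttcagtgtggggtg
Kcnn3 (calcium-activated potassium channel), score 14.4, chr3:89519965-89520085, plus strand: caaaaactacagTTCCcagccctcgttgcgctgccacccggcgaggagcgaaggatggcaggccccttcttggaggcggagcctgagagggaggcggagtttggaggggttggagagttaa
Rnf183 (ubiquitin ligase), score 14.4, chr4:62435260-62435380, minus strand: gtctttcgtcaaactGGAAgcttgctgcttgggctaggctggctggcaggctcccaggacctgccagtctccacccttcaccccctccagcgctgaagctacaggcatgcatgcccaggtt
2200002D01Rik, score 13.7, chr7:29248468-29248579, minus strand: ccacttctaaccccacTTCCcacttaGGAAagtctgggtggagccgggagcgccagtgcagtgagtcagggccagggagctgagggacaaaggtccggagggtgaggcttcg

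For contrast, the 3 highest-scoring Day 12- 12 sites called in all 7 libraries and chosen in the same way are shown.
Vav1 (exchange factor of blood cells), score 448, chr17:57279034-57279099, plus strand: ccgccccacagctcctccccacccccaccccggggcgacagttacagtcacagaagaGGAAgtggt
Rab32 (vesicle-trafficking GTPase), score 425, chr10:10558208-10558298, minus strand: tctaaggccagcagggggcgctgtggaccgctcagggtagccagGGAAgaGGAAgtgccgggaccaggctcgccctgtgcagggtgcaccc
Capn10 (calpain protease), score 386, chr1:92934257-92934377, plus strand: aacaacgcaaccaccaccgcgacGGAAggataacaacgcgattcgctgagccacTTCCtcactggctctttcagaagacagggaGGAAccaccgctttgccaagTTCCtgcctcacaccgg
Each of these 3 held the longer GAGGAAGT on one strand or the other, and none of the 8 member stretches did. The 3 scored 386 to 448 and the 8 members 13.7 to 18.3, so this contrast was not made at like scores. The core itself stood in 6 of the 8 member stretches and in neither that of Plk1 nor that of Car6. The Plk1 stretch was cut to 68 bases by the edge of its window. No background share of the core was counted for stretches of these lengths (60 to 121 bases).

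Over whole promoter windows, GAGGAAGT was present in 3.70% of those with a member (3 of 81, 0.770 to 10.4%) and in 3.13% of all 21262. The shorter GAGGAA was present in 29.6% of the member windows (19.99 to 40.8%), against 27.4% of all. Windows with a shared site had GAGGAA in 40.5% (38.5 to 42.5%) and GAGGAAGT in 10.2% (8.996 to 11.5%), and windows with a weaker site had them in 22.9% and 1.49%. Where another library also called a Day 12- 12 site but its score was under 10, windows had them in 27.8% and 2.99%. Scores were not matched in these comparisons. Member windows therefore had both strings at about the share of all promoters, and with 81 windows the intervals were too wide to part them from the shared ones. Both strands were searched, and the strings nest, so a window with GAGGAAGT also counts for GAGGAA and GGAA. GGAA alone was in 98.8% of member windows and 95.7% of all, which leaves nothing to tell apart.

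The other strings searched also lay near their background. CCAAT, bound by NF-Y, was in 42.0% of member windows (31.1 to 53.5%) and 38.2% of all windows. GGGCGG, the GC box of the SP and KLF factors, was in 53.1% of member windows (41.7 to 64.3%) and 46.2% of all. It was in 67.2% of windows with a shared site (65.3 to 69.1%), an interval that did not overlap that of the members. TGTGGT, a RUNX core, was in 19.8% of member windows (11.7 to 30.1%) and 14.97% of all. For TTGCNNAA (C/EBP type), TGANTCA (AP-1), TGCGCA (NRF1 type) and AAGATGGC (YY1) the member shares were 6.17, 7.41, 8.64 and 2.47%, against 10.2, 6.99, 9.74 and 3.05% of all windows. Each of these shares of all windows lay inside the member interval. Mean GC content was 58.0% ± 4.54 in member windows, 61.2% ± 6.33 in windows with a shared site and 56.2% ± 11.6 in all (SD over windows). A match describes letters in a window and not a bound site.

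The members sat at the low end of the scores above 10. Their median score was 11.8, with 90% at or under 16.7 and 99% at or under 24.5. The highest score was 104 and the next 51.7. Scores were coarse: 863 distinct values served the 9720 members, 1544 members shared the value 10.7, and 4417 (45.4%) had one of the 5 most common values. The member closest above the threshold lay inside Casz1, at 10.0037. Several members tied at the next value, 10.0057, among them the 1 at Fli1. Ties were taken by chromosome and position, and the 4 named in this way lay nearest to Golga4, Zfp651, Ackr2 and Magea1. The 5 unshared sites closest below the threshold, with ties taken in the same way, lay nearest to Srrt, at 9.9911, and to Slc16a3, Mark2, Col9a2 and Mul1, all at 9.98935.

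Members made up 33.8% of the 28751 Day 12- 12 sites that scored 10 or more. The unshared share of the list became smaller as the score grew. It was 84.4% for scores under 5, 53.9% between 10 and 12, 27.3% between 15 and 20, and 9.29% between 20 and 30. Of the 4794 Day 12- 12 sites that scored 30 or more, 38 (0.793%) were members. By the same rule day 0 had 926 sites of its own, day 4 had 8371, day 8 had 778 and day 12 had 7685. Day 12- 4 had 53 such sites and Day 12- 8 had 1383. Their lists were shorter, at 8043, 57424, 33962, 86271, 9868 and 21377 sites in the same order, and since depth and control library are unknown, these counts do not compare levels of binding.

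**Figure D1:**
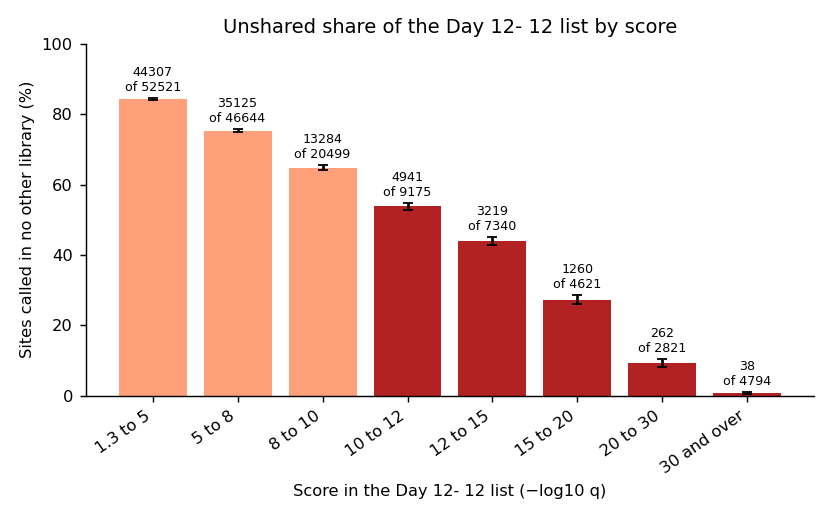
Percentage of Day 12- 12 sites called in no other library (vertical axis) by score in the Day 12- 12 list (−log10 q, horizontal axis), with exact 95% intervals and the counts above each bar; dark red bars hold the 9720 members and pale bars the weaker sites. The share is 53.9% between scores of 10 and 12 and 0.793% at 30 and over.

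The 3 highest-scoring members lay close to strong calls of other libraries that missed the 100 bp limit. The first, inside Fmnl1, a formin that shapes the actin cytoskeleton of blood cells (chromosome 11, summit 103178009, mm10), scored 104 in Day 12- 12. A day 12 summit with a score of 320.2 lay 280 bp away, a day 4 summit with 98.4 lay 349 bp away and a day 8 summit with 86.4 lay 354 bp away. The second member, 20.5 kb outside Irf2bp2, a transcriptional corepressor (chromosome 8, 126614494), scored 51.7, and day 4, day 12 and day 8 summits lay 120, 195 and 232 bp away with scores of 49.0, 68.6 and 35.1. The third, 874 bp outside Igsf8, an immunoglobulin-family membrane protein (chromosome 1, 172311493), scored 51.3, and 4 libraries had summits between 136 and 153 bp away. The day 4 summit among them scored 259.6. None of these 3 was far from a call made elsewhere.

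The surroundings of the other leading members varied. A member inside Ski, which encodes a repressor of TGF-beta signalling (chromosome 4, 155162657), scored 50.3 and had a Day 12- 4 summit 138 bp away. A stronger Day 12- 12 summit, with a score of 504.6, lay 741 bp from it. A member inside Rgs12, a regulator of G protein signalling (chromosome 5, 35035892), also scored 50.3, with a day 4 summit of score 172.7 at 125 bp. A member inside Adora2a, an adenosine receptor gene (chromosome 10, 75326572), scored 48.3, with a day 8 summit at 113 bp. Members inside Mroh2a scored 50.6 (where Hjurp overlaps it) and 47.9, and their nearest summits of another library were 554 and 472 bp away, with scores of 6.67 and 30.04. Hardly further from the first, at 578 and 585 bp, lay day 4 and day 8 summits with scores of 83.1 and 61.5. A member 18.9 kb outside Gm51591 (chromosome 8, 55347429) scored 43.0, and the nearest call, a Day 12- 8 summit at 136 bp, scored 4.81. Gm46430, Prpf18, Mospd3 and 2900026A02Rik, with scores between 40.8 and 44.8, complete the 13 leading members that could be assigned to a gene, and the other two of the first 15 lay on an unplaced scaffold.

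**Figure D2:**
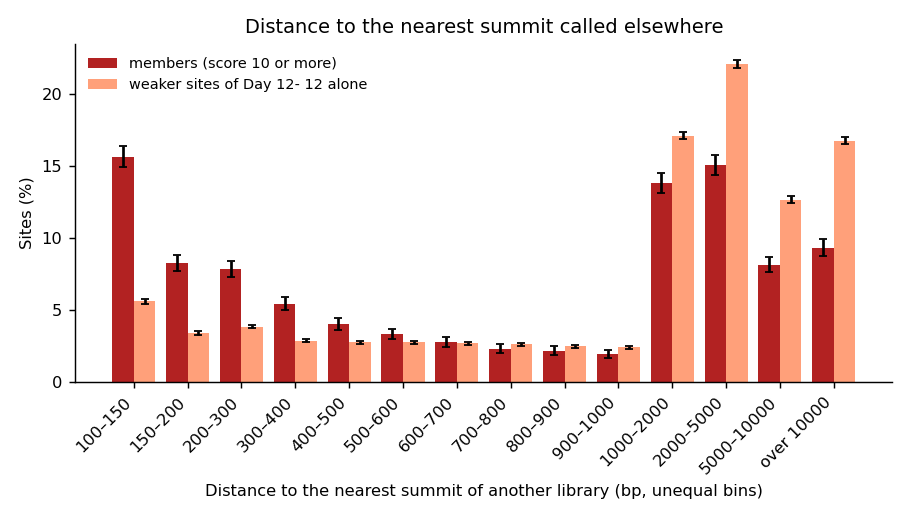
Percentage of sites (vertical axis) by distance to the nearest summit of any of the other 6 libraries (bp, bins of unequal width on the horizontal axis), for members (dark red) and weaker sites (pale), with exact 95% intervals. Members are the larger share in the bins up to 600 bp and the smaller share in the bins from 700 bp on.

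Proximity to another library's call held for the members as a class. A summit of another library lay within 200 bp of 23.9% of the members and of 8.98% of the weaker sites. Within 2 kb the shares were 67.4% (66.5 to 68.4%) for members and 48.5% (48.2 to 48.8%) for weaker sites. The median distance was 822.5 bp for members and 2122 bp for weaker sites, and by the rule none was under 101 bp. Within the members the share with such a neighbour was larger at higher scores. A neighbour within 200 bp was present for 18.8% of members that scored 10 to 12, 25.2% at 12 to 15, 32.7% at 15 to 20, 56.5% at 20 to 30 and 73.7% at 30 and over. All 38 members that scored 30 or more had one within 2 kb.

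The nearest call of another library was most often from day 12. It was nearest for 6488 members (66.7%), day 4 for 1788, day 8 for 582, Day 12- 8 for 564, Day 12- 4 for 202 and day 0 for 96. Within 2 kb, a day 12 summit was present for 61.0% of members and 39.9% of weaker sites, and a day 4 summit for 25.7% of members and 19.3% of weaker sites. A Day 12- 8 summit was present for 10.3% of members and 7.72% of weaker sites. Day 0 was the exception, at 1.35% of members and 1.68% of weaker sites. The day 12 list was also the longest of the 6, and its length was not separated from its time point. Leaving out day 12 raised the number of sites that met the rule to 16174 and lowered the share within 2 kb of another library to 38.3%.

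Members also had close neighbours within their own list. Another Day 12- 12 summit lay within 2 kb of 64.4% of members, 54.2% of weaker sites and 54.4% of shared sites. For 799 members (8.22%) the nearest Day 12- 12 summit was within 2 kb and had the higher score, a count that the score minimum of the rule itself holds down. Joined at gaps of up to 10 kb, the members formed 7210 runs, and 5677 members (58.4%) stood alone in theirs. The longest run by count had 12 members over 49.1 kb of chromosome 5, at Mmab and Ube3b. Another had 11 over 33.5 kb of chromosome 1, at Hjurp and Mroh2a. Runs of 10 lay on chromosome 4 at Col16a1, at Padi3 and Padi4, and at Prkcz.

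A minority of members was isolated. No other library had a summit within 2 kb of 3164 members (32.6%) or within 10 kb of 907 (9.33%), and 492 (5.06%) had no summit of any of the 7 lists within 10 kb. Isolation was less common in members than in weaker sites, of which 16.8% had no other library within 10 kb. Another library lay within 2 kb of 48.5% of weaker sites and 67.4% of members. The count over all 7 lists was not made for weaker sites. The isolated members had modest scores. The highest among the 907 was 28.1, inside Rerg, a RAS-like GTPase gene (chromosome 6, 137056253). It was followed by sites 7.78 kb outside Clec4b1, a C-type lectin gene, at 24.5, and inside Mypn, a sarcomere protein gene, at 23.6. These 3 genes were named after their values were seen. Of the 907, 2.32% lay within 1 kb of a gene end and 43.0% inside a gene body.

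Members lay at gene boundaries less often than the shared sites and slightly more often than the weaker sites. The share over the whole Day 12- 12 list was not worked out. At most 1 kb from a protein-coding gene's start or end lay 8.30% of them (805 of 9701 on assembled chromosomes, 7.76 to 8.86%), 6.97% of weaker sites and 23.9% of shared sites. Within 100 bp of an annotated gene start the shares were 0.725% for members, 0.508% for weaker sites and 10.1% for shared sites. Members also stood below the shared sites at like scores up to 30. Between scores of 10 and 12, 8.00% of members (7.26 to 8.79%) and 14.6% of shared sites (13.6 to 15.7%) lay within 1 kb of a gene end. Between 15 and 20 the shares were 8.59% of members and 20.4% of shared sites. At 30 and over they were 25.7% of 35 members (12.5 to 43.3%) and 39.1% of shared sites (37.8 to 40.6%), and the intervals overlapped. Inside a gene body lay 69.2% of members, 62.3% of weaker sites and 63.6% of shared sites. Exons and introns were not assigned.

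Sites alone in the other libraries, picked by the same score, were mostly nearer to genes' ends. The share within 1 kb of an end was 8.30% for the members. It was 58.4% for day 0, 8.17% for day 4, 17.2% for day 8 and 27.7% for day 12 alone. It was 25.0% of 52 sites for Day 12- 4 and 42.4% for Day 12- 8. The interval of the day 4 class overlapped that of the members. Inside a gene body lay 69.2% of members (68.2 to 70.1%). The shares were 80.8% for the sites of day 0 alone, 50.04% for day 4, 54.7% for day 8 and 69.04% for day 12. They were 59.6% for Day 12- 4 and 73.4% for Day 12- 8. The body share of the members was thus not particular to them.

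**Figure D3:**
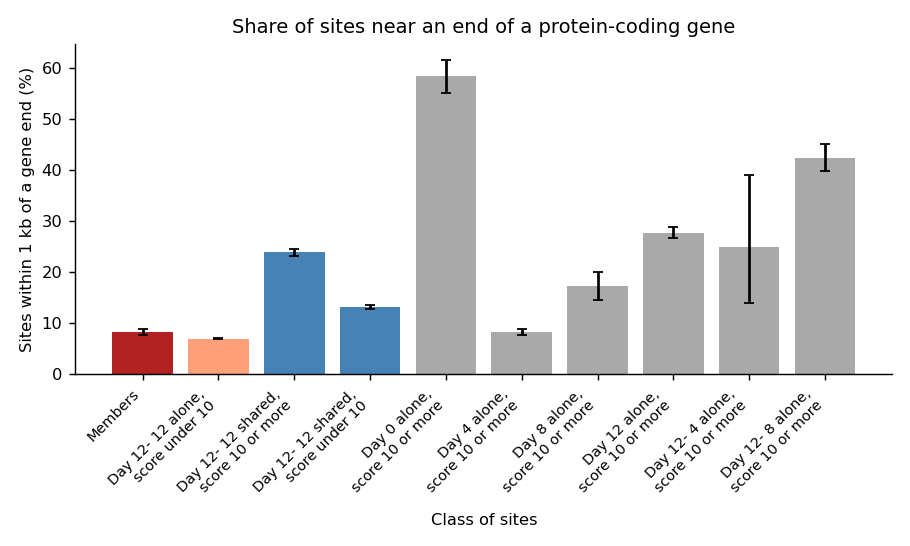
Percentage of sites at most 1 kb from a protein-coding gene's start or end (vertical axis) for members, the other classes of Day 12- 12 sites and the sites alone in each other library at a score of 10 or more, with exact 95% intervals. Members stand at 8.30%, close to the sites of day 4 alone (8.17%) and below the shared Day 12- 12 sites (23.9%).

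The members were spread unevenly over the chromosomes. On chromosomes 4, 5 and 10 they made up 10.9% (1885 of 17285), 10.3% (1737 of 16837) and 9.96% (950 of 9538) of all Day 12- 12 sites. On 11 other autosomes the share ran from 4.64% (chromosome 18) to 6.29% (chromosome 17). On chromosomes 2, 12, 13, 14, 16 and X it ran from 1.44% (chromosome 13) to 2.10% (chromosome X), and chromosome 2 had 101 members among 6499 sites. These 3 sets of chromosomes were drawn from these same shares after they were seen and are a description. That no share of one set lay within the range of another follows from how the sets were drawn. In 10 Mb bins with at least 100 Day 12- 12 sites, the share was 4.38 to 13.5% over 45 bins of the first set, 0.893 to 7.98% over 138 bins of the second and 0 to 3.97% over 46 bins of the third. The ranges of the sets overlapped, and their median bins stood at 8.88, 5.06 and 1.57%. A share over 8% was found in 29 of the 45 bins of the first set. That cut lies just above the highest bin of the second set, so 0 bins of the other sets passed it. By the medians and these 29 bins, the difference ran through many bins and not a few loci, with a spread within each set.

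**Figure D4:**
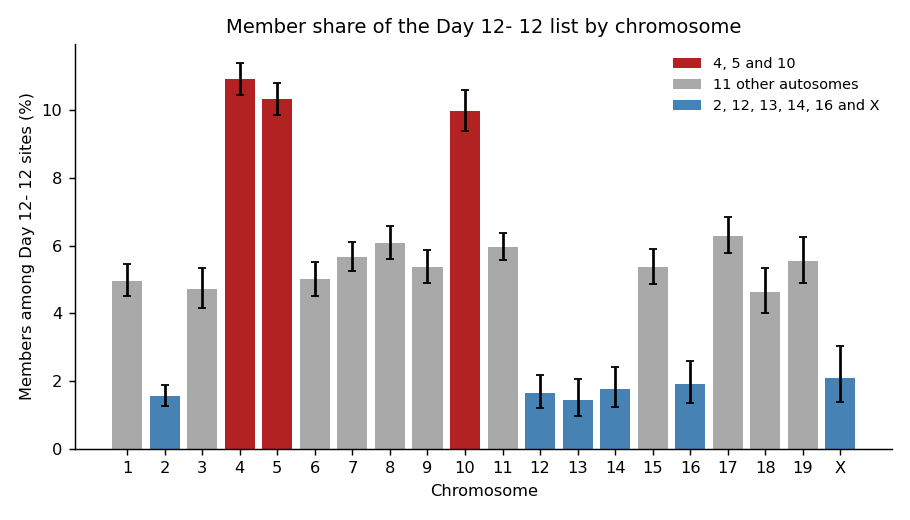
Members as a percentage of all Day 12- 12 sites of each chromosome (vertical axis), with exact 95% intervals; colours mark 3 sets of chromosomes drawn after the shares were seen. Chromosomes 4, 5 and 10 stand between 9.96 and 10.9%, and chromosomes 2, 12, 13, 14, 16 and X between 1.44 and 2.10%.

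Chromosomes 4, 5 and 10 held 47.0% of the members (46.0 to 48.0%), 27.9% of the weaker sites and 33.0% of the shared sites. These 3 chromosomes held 29.4% of all 148415 Day 12- 12 sites and 37.8% of the 28751 that scored 10 or more, members included. They held between 20.1 and 33.2% of the sites alone in day 0, day 4, day 8, day 12 or Day 12- 8, and 16.4% of protein-coding genes. Chromosomes 2, 12, 13, 14, 16 and X held 2.87% of the members, 11.8% of weaker sites and 11.04% of shared sites. Of all Day 12- 12 sites they held 11.3%, and of genes 26.4%. Members exceeded shared sites at like scores. Between 10 and 12 the first set held 42.6% of members and 36.2% of shared sites, and between 20 and 30 it held 62.2% (56.0 to 68.1%) of members and 30.01% (28.2 to 31.8%) of shared sites. At 30 and over it held 42.1% of the 38 members (26.3 to 59.2%) and 24.5% of shared sites (23.3 to 25.7%).

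The score scale of the whole Day 12- 12 list moved with the same sets. Its median score per chromosome was 6.89 to 6.92 on chromosomes 4, 5 and 10, 5.96 to 6.42 on the 11 other autosomes and 5.59 to 5.65 on 2, 12, 13, 14, 16 and X. The members were chosen by these same scores. Of all 102436 unshared sites, of any score, 29.7% lay on chromosomes 4, 5 and 10, near the 29.4% of the whole Day 12- 12 list. The share of sites within 1 kb of a gene end was 6.56% for members on these 3 chromosomes and 9.90% for members on the 11 other autosomes, and below that of shared sites on the same chromosomes, at 16.8 and 25.9%. What sets the score scale of a chromosome was not tested.

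By gene, 5282 of 21883 protein-coding genes (24.1%) had a member in the gene body or within 10 kb of it. 3136 of these had 1 member and 329 had 5 or more. The unevenness over chromosomes carried over: 47.2% of the genes on chromosomes 4, 5 and 10 had a member, 27.5% on the 11 other autosomes and 3.803% on chromosomes 2, 12, 13, 14, 16 and X. Longer genes had one more often, at 16.4% of genes up to 10 kb long and 34.5% of genes over 100 kb. The 5 genes with the most members were each over 200 kb long and lay on chromosomes 4, 5 or 10. Camta1, a calmodulin-binding transcription factor, and Sorcs2, a sorting receptor, had 32 members each, among 336 and 181 Day 12- 12 sites. Cdh23, a cadherin of the inner ear, had 29, Glis1, a zinc finger factor, 24, and Mad1l1, a spindle checkpoint protein, 21.

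Over the lists of blood-lineage genes the share with a member lay on both sides of that background, and no difference was tested. In the myeloid maturation list (granule, surface and oxidase proteins of neutrophils and macrophages) 11 of 37 genes had one, and 33 had a Day 12- 12 site of any kind. Such a site was common: it lay at 63.6% (mast cell and basophil) to 96.6% (ribosomal protein) of genes in each list but the olfactory and vomeronasal one (25.7%). The share over all protein-coding genes was not worked out. A member of score 15.7 lay inside Ncf1, a subunit of the NADPH oxidase, where the strongest Day 12- 12 site scored 268, and a day 4 summit was 152 bp from the member. The highest members by Itgb2, the common beta-2 integrin chain, and Elane, neutrophil elastase, scored 19.9 and 17.1. They lay 6758 bp outside Itgb2 and 5336 bp outside Elane, nearer to Fam207a and Cfd. Day 12 summits were 112 and 101 bp from them.

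Of the myeloid transcription factor genes, 6 of 23 had a member. The highest were 17.4 inside Runx3, 16.7 at 3 bp from Stat3 and 15.6 at 7881 bp from Klf2, each with a call of another library within 150 bp. For Stat3 the member was also the strongest of its 21 Day 12- 12 sites. Spi1, the gene of PU.1 itself, had 1 member with a score of 12.4 among 13 Day 12- 12 sites, the strongest of which scored 472. Spi1 was named for its role and not by the rule for named genes.

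Among genes of stem cells and leukaemia, 3 of 24 had a member. A Day 12- 12 site of any kind lay at 23, a share near that of the housekeeping genes (19 of 20). Kit, the stem cell factor receptor, had 4 members on chromosome 5, and the highest (14.6) was the strongest Day 12- 12 site of the gene, with the nearest call of another library 2580 bp away. Erg, an ETS factor, had 1 of score 11.6 with no call of another library closer than 12264 bp. Fli1, another ETS factor, had 1 of score 10.0, 168 bp from a day 12 summit. The 3 genes thus differed in how close another library's call lay.

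In the B-lymphoid list 6 of 15 genes had a member, and Pax5, the B-cell identity factor on chromosome 4, had 12 of the list's 17 members, the highest at 21.1. A day 12 summit lay 105 bp from that site. Cd79a, of the B-cell receptor, had 1 at 15.9, which lay nearer to Arhgef1, and Ebf1, another B-cell factor, had 1 at 12.8. In the T-lymphoid list 5 of 15 genes had a member, with 20.001 inside Zap70, a T-cell receptor kinase, 16.7 at 84 bp from Lef1 and 14.6 inside Tcf7, both factors of the TCF family. Among erythroid and megakaryocytic genes 5 of 15 had one. Zfpm1, the GATA1 cofactor FOG1, had 6 members, the highest at 14.4, and Gp9 and Vwf, of platelets, had 1 each at 11.2 and 10.8, the Vwf site lying nearer to Ano2.

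Of the mast cell and basophil genes, 3 of the 11 matched in the annotation had a member. These were Il1rl1, the IL-33 receptor, with a site of score 15.2 nearer to Il18r1, then Kit, and Tpsb2, a mast cell tryptase, with a site of score 10.7 nearer to Cacna1h. Among ETS-family genes 7 of 17 had one, the highest at Elk3 and Elf2, both 14.4, and at Ets1, 12.6. Fli1 and Erg belong to that family too, and Spi1 is the gene of PU.1, so these 3 stand in more than 1 count. So do Kit, in the stem cell and mast cell lists, and Rpl13a, in the housekeeping and ribosomal protein lists.

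Lists without a blood-lineage role were in the same range. 7 of 28 cell cycle genes had a member, with 20.1 inside Mcm7, a helicase subunit, 18.3 at Plk1, whose promoter stretch is shown above, and 17.3 inside E2f2. 5 of 20 housekeeping genes had one, with 26.8 inside Gapdh, 23.4 at 9410 bp from Ppia and nearer to Zmiz2, and 15.4 inside Gusb. 7 of 20 genes of other tissues had one, with 32.9 inside Ckm, muscle creatine kinase, where a Day 12- 4 summit was 103 bp away, 21.1 inside Mbp, myelin basic protein, and 16.5 inside Tnnt2, cardiac troponin T. Of 87 genes with ribosomal protein symbols, 18 had one, and the highest, at Rpl38, Rpl37rt and Rpl13a, lay between 5157 and 7196 bp outside those genes.

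Olfactory and vomeronasal receptor genes, which lie in silent clusters in blood cells, had a member in 33 of 1465 cases (2.25%), and 377 had any Day 12- 12 site. The highest was a single site of score 31.5 on chromosome 4 that served both Vmn1r2 and Vmn1r3, and next came one of 26.9 at 8426 bp from Olfr1331. Leaving that list aside, the share of genes with a member ran from 12.5 to 41.2% over the other 12 lists, on both sides of the 24.1% of all genes. With 11 to 87 genes a list and a different mix of chromosomes and gene lengths in each, nothing particular to a list can be read from these counts.

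**Figure D5:**
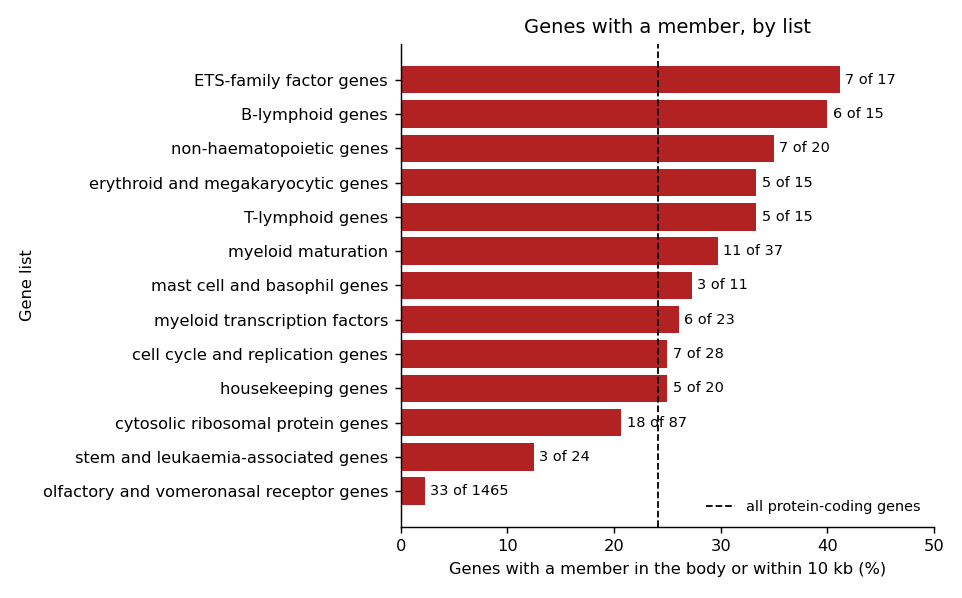
Percentage of genes with a member in the gene body or within 10 kb (horizontal axis) for the 13 gene lists (vertical axis), with the counts beside each bar; the dashed line is the 24.1% of all protein-coding genes. ETS-family genes stand at 41.2% (7 of 17) and olfactory and vomeronasal receptor genes at 2.25% (33 of 1465).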

How the data were processed

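The deposited files were lists of peak summits, 1 per library, with a score per summit that was read as the authors' −log10 q-value, since the lowest score in the lists was 1.30104 and a q-value of 0.05 corresponds to 1.30103. MACS2 and mm10 are named in the submitters' processing notes. Not given in the sources used here are its version, the aligner, the control library, filters, depth and any pooling. Of 8 labelled samples, 7 were used, and the 1 labelled 12 days off Dox was not analysed here.

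Summits were merged by single linkage within 100 bp, and distances were taken from the Day 12- 12 summit. Gene bodies (21883 protein-coding genes) and promoter windows came from RefSeq tables for GRCm38.p6, the assembly of mm10. No genome was used, so sequence was read in promoter windows alone, and 19 members on scaffolds stayed out of gene counts. Python 3.11.15, numpy 2.4.6, pandas 2.3.3, scipy 1.17.1 and matplotlib 3.10.9 were used, and the merging was tested on simulated data.

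Members and lists were chosen with earlier results of these data known. Named were the genes nearest to the 15 highest members and to 5 sites on either side of the threshold, with ties taken by chromosome and position. Also named were the 5 genes with the most members and the 3 genes of each list with the highest members. The 8 highest members in a promoter window all overlapped a gene body, so sequences were printed for the 8 highest that did not and had at least 60 upstream bases, a choice made after seeing the data, as were the comparison at like scores and the sets of chromosomes.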

Additional observations from a re-analysis of the deposited data

How the results depend on the processing

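No paired analysis was possible because each time point had 1 library and no test was run. Against 9720 members, minimums of 5, 15 and 20 gave 58129, 1560 and 300, and linkage at 500 bp gave 5698. The share within 1 kb of a gene end (8.30%) was 7.20, 9.28 and 12.2% at these minimums, 9.64, 7.03 and 6.01% with linkage at 50, 200 and 500 bp, and 4.62 and 14.4% with ends at 500 and 2000 bp. The share inside a gene (69.2%) was 64.0 and 71.5% at minimums of 5 and 15, and 68.0 and 66.0% with linkage at 200 and 500 bp. The share within 2 kb of another library (67.4%) was 53.1, 79.4 and 90.3% at the 3 minimums, 75.7, 57.2 and 44.5% with linkage at 50, 200 and 500 bp, and 53.6 and 82.5% with distances of 1000 and 5000 bp. The share on chromosomes 4, 5 and 10 (47.0%) was 33.7, 58.1 and 59.7% at the 3 minimums and 45.9% with linkage at 50 bp. Genes with a member (5282) numbered 12911, 1380 and 327 at the 3 minimums and 9009 with 50 kb flanks. An equal share of unshared sites per chromosome, chosen after seeing the data, gave 64.9% within 2 kb of another library and, by its construction, the 29.7% of all unshared sites on chromosomes 4, 5 and 10. Leaving out each other library in turn gave 9722 to 16174 members, 8.31 to 9.33% near a gene end, 68.8 to 69.2% inside a gene, 38.3 to 67.6% within 2 kb of another library, 46.5 to 47.0% on chromosomes 4, 5 and 10, and 5284 to 7080 genes. The highest member count and the lowest 2 kb share were those without day 12, and the cause was not tested. Gene list counts, varied after seeing the data, depended on the minimum and on the flank: the myeloid maturation list (11) had 28, 3 and 0 genes at minimums of 5, 15 and 20, and 4, 6 and 21 with flanks of 0, 5 and 50 kb. Windows of 50 or 200 bp around summits were not run for the GGAA core, since no genome was used.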

Other observations

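19 members lay on 6 unplaced or unlocalised scaffolds, 7 of them on JH584304. The highest of these scored 49.1 and 45.4, which puts both among the 15 highest members. A day 4 summit lay 159 bp from the first and a day 12 summit 108 bp from the second.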
